A study of Mus musculus with 18 samples.

Results

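In E0771 cells, a mouse triple-negative mammary tumor line, 45 genes of glycolysis and of the response to low oxygen were followed through 18 RNA-seq libraries. The genes were listed by name, with earlier results of these libraries known. They were the hypoxia-inducible factors (HIF) with the enzymes that sense oxygen (7 genes), glucose transport and glycolysis (19 genes), the handling of pyruvate and lactate (6 genes) and other known HIF targets (13 genes). All 45 were found by symbol among the 50686 genes of the count files. A filter on low counts left 42 for testing. The other 3, Epas1, Aldoc and Ldhb, were near 0 in every group, with at most 0.278, 0.282 and 0.0591 CPM (reads per 1000000 reads counted, after scaling) in any library.

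HIF is a dimer of an oxygen-labile alpha subunit, HIF1A or EPAS1, and the stable subunit ARNT. In normal oxygen, prolyl hydroxylases (the Egln genes) mark the alpha subunit and VHL directs it to degradation, so much of its control lies in the protein and not in its mRNA. When oxygen falls, HIF raises transcription of glucose transporters, glycolytic enzymes, lactate exporters and genes for vessel growth, pH control and matrix. Many tumor cells run the same glycolytic genes in normal oxygen. CDK8 and its paralog CDK19 are kinases of the Mediator complex, and CDK8 is a known coactivator of HIF1A.

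The study asked what CDK8 does in these cells and whether its kinase activity is needed for it. There were 6 groups of 3 libraries. The cntrl line carried a hairpin against Renilla luciferase that has no target in the cells, and the lines shCdk8-1 and shCdk8-2 carried different hairpins against Cdk8 (CDK8.1593 and CDK8.1830), all delivered by retrovirus. Treatment of each line lasted 48 h, with DMSO, the solvent, or with 1 µM Senexin B (SnxB), an inhibitor of the CDK8 and CDK19 kinases. With 1 infected line per hairpin, an effect of a hairpin and a difference between lines cannot be told apart. The labels do not say that replicates were separate cultures, so p-values measure only the spread between these libraries, which may be technical. The labels name no exposure to low oxygen.

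Depth was 16452260 to 22664693 reads counted to genes per library (median 19029320). Cdk8 mRNA was 56.1 ± 2.13 CPM in cntrl in DMSO (mean ± SD, n = 3), 21.4 ± 2.44 in shCdk8-1 and 38.9 ± 0.376 in shCdk8-2, and 55.0 ± 2.04 in cntrl in SnxB, which acts on the kinase. Cdk19 was 93.7 ± 0.237 CPM in cntrl in DMSO, 125 ± 3.53 in shCdk8-1 and 102 ± 1.7 in shCdk8-2. Epithelial transcripts were scarce: 8 markers (Krt5, Krt7, Krt8, Krt14, Krt18, Krt19, Epcam and Cdh1) summed to 0.325 to 0.49 CPM in cntrl in DMSO, 8.22 to 9.18 in shCdk8-1 and 12.6 to 14.6 in shCdk8-2, in the knockdown lines mostly Krt8. By the authors' definition, triple-negative tumors lack the estrogen (Esr1) and progesterone (Pgr) receptors, while HER2 (Erbb2) is normal in copy number and expression. Pgr was at 0 throughout and Erbb2 was 55.4 CPM in cntrl in DMSO. Esr1 was 23.1 CPM in cntrl in DMSO but 1.25 in shCdk8-1 and 0.951 in shCdk8-2. The 6 leukocyte markers summed to at most 3.29 CPM in any library. In the 3 lines in DMSO, in the same order, the 3 endothelial markers summed to 4.95 to 5.61, 13.6 to 15.2 and 6.41 to 6.83 CPM. Pecam1 made up most of it in the knockdown lines (0.286, 14.3 and 5.85 CPM), while Cdh5 (4.34, 0.206 and 0.595) and Kdr (0.606, 0.0534 and 0.112) had lower means there. The 8 mesenchymal markers summed to 5053 to 5196, 4302 to 4526 and 4754 to 4927 CPM, mostly Vim (4431, 3912 and 4181). Pdgfra (286, 229 and 256) and Pdgfrb (265, 166 and 162) had lower means in the knockdown lines. Col1a1 (0.78, 16.6 and 9.91) and Col1a2 (0.0344, 0.517 and 0.373) had higher ones. Acta2 was 142, 94.6 and 209 CPM, and Cdh2 and Fn1 were near 0. With SnxB in cntrl the endothelial sum was 2.72 to 3.25 CPM and the mesenchymal sum 5096 to 5375. Of the mesenchymal markers, Acta2 was 419 CPM there against 142 in DMSO. Pdgfra (352 against 286) and Pdgfrb (315 against 265) rose less, and Vim went the other way (4152 against 4431). These levels moved with the line or the treatment, and their part in the results was not tested.

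Genes were first compared with each other in cntrl cells in DMSO, as CPM per kb of exon. The length was that of all exons of a gene together. It exceeds the longest coding transcript far for some genes (9395 against 4145 bases for Pfkp) and little for others (2957 against 2879 for Pfkm). The order of genes and the isoform shares depend on this choice of length. Ldha, which turns pyruvate into lactate, had the highest level at 422 ± 10.3 CPM per kb. It was followed by the triosephosphate isomerase Tpi1 at 276 ± 5.42, the pyruvate kinase Pkm at 241 ± 7.17, the aldolase Aldoa at 178 ± 3.34 and the lactate transporter Slc16a1 at 152 ± 6.2. Hif1a came next at 109.7 ± 3.67 CPM per kb, whereas Epas1, the other alpha subunit, was at 0.0332 ± 0.02. Some neighbours in this order did not differ beyond their spread, such as Slc2a1 (64.7 ± 2.86) and Slc16a3 (61.9 ± 1.7), or Gpi1 (53.4 ± 1.33) and Eno1 (53.0 ± 2.16).

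Among the listed isoforms, some families were carried by 1 gene and others were shared. Isoforms outside the list, such as the enolase gene Eno3 (18.4 ± 1.01 CPM in cntrl in DMSO) and Pdk2, do not enter these shares. Slc2a1, the widespread glucose transporter, held 94.2 ± 0.185% of the summed level per kb of Slc2a1 and Slc2a3, and Eno1 held 96.2 ± 0.846% of that of Eno1 and the neuronal Eno2. Hk1 held 69.4 ± 0.985% of the hexokinase signal against Hk2, which HIF induces. The 3 genes of phosphofructokinase, the enzyme of the committed step, had similar shares per kb of exon. These were 37.8 ± 0.866% for Pfkp, 32.0 ± 0.534% for Pfkl and 30.2 ± 0.339% for Pfkm. Their exon lengths exceed their transcripts unevenly, so a similar abundance of the 3 mRNAs does not follow. The pyruvate dehydrogenase kinases (Pdk1 42.2 ± 0.81% and Pdk3 57.8 ± 0.81%) and the prolyl hydroxylases (Egln1 41.5 ± 0.956%, Egln2 21.8 ± 1.44% and Egln3 36.8 ± 1.22%) were shared as well. Aldoc and Ldhb gave almost no reads beside Aldoa and Ldha.

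Several of these levels are underestimates. The authors left out reads that map to more than 1 place, and many glycolytic genes have near-identical processed copies. Of the 50-base stretches of the longest Gapdh transcript, 82.5% were also present in transcripts of 222 other genes. The share was 72.2% for Eno1, 68.0% for Pgk1, 62.4% for Bnip3, 41.5% for Pgam1 and 34.4% for Pkm, and it was 0 for 21 of the 45 genes. Gapdh, usually an abundant mRNA, stood at 19.4, 17.4 and 11.8 CPM in the cntrl libraries in DMSO and spread from 8.04 to 24.1 CPM over all 18 libraries. Its log2 differences from cntrl in DMSO were 0.14 ± 0.27 (± SE) in shCdk8-1 and 0.16 ± 0.27 in shCdk8-2, and neither passed the test (edgeR adjusted p = 0.68 and 0.63). Values of these genes rest on the unique part of their transcripts and are uncertain.

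**Figure D1:**
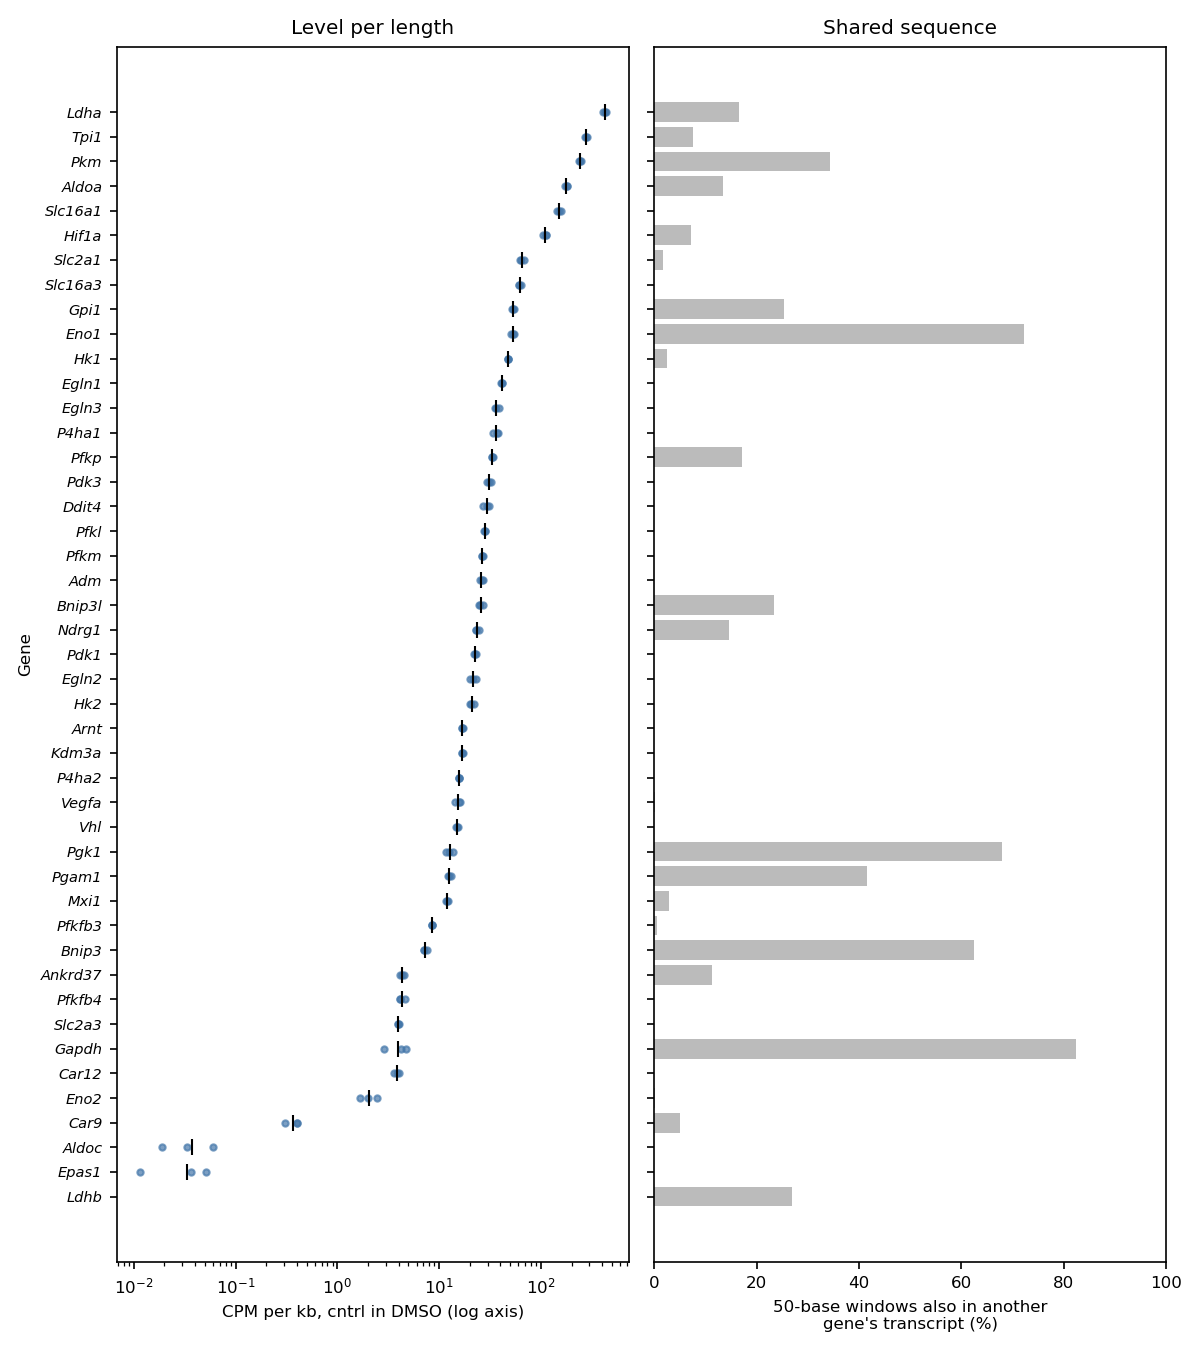
Left, level of each of the 45 genes in the 3 cntrl libraries in DMSO (points) with the mean (short line), in CPM per kb of exon on a log axis; a value of 0 cannot be drawn, and Ldhb was at 0 in all 3. Right, share of 50-base stretches of the longest transcript that also occur in a transcript of another gene, highest for Gapdh at 82.5% and Eno1 at 72.2%.

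In DMSO, more of the genes were higher than lower in shCdk8-1, while the counts in shCdk8-2 were near those of all genes. In shCdk8-1, 24 of the 42 tested genes were higher than in cntrl and 6 were lower (edgeR quasi-likelihood test, Benjamini-Hochberg adjusted p under 0.05 over the 12590 genes tested). In the whole transcriptome, 60.6% of genes passed that test in shCdk8-1, 30% higher and 30.6% lower. In shCdk8-2, 14 of 42 were higher and 9 lower, where 58.2% of all genes passed, 28.7% higher and 29.5% lower. The genes of oxygen sensing and the other HIF targets held more lower than higher calls there. The median log2 difference over the 42 genes was 0.14 in shCdk8-1 and 0.08 in shCdk8-2, against 0.0019 and 0.0043 over all genes. Most changes were below 2-fold: Eno2 alone passed that limit as well, in shCdk8-1, where 12.3% of all genes did, and no gene of the 42 passed it in shCdk8-2, where 10.8% did. The comparisons share the 3 cntrl libraries and are therefore given side by side, without a count of calls in common.

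Of the 6 tested genes of HIF and oxygen sensing, 3 were higher in shCdk8-1, and 1 was higher and 2 lower in shCdk8-2. Hif1a was 654, 622 and 663 CPM in the cntrl libraries, 773, 794 and 769 in shCdk8-1 and 819, 817 and 806 in shCdk8-2. Every library of the knockdown lines lay above every cntrl library, by 0.27 ± 0.04 on the log2 scale in shCdk8-1 and 0.33 ± 0.04 in shCdk8-2 (edgeR adjusted p = 2.2e-05 and 2.9e-06). In bulk RNA, a larger share of cells with a transcript and more of it per cell cannot be told apart. Its partner Arnt was 138, 134 and 136 CPM in cntrl, 127, 131 and 127 in shCdk8-1 and 114, 116 and 118 in shCdk8-2. Arnt was lower than in cntrl in shCdk8-2 (log2 difference -0.23 ± 0.04, adjusted p = 8.5e-05), and the difference of -0.08 ± 0.04 in shCdk8-1 did not pass (0.084).

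Egln1, the main prolyl hydroxylase of the HIF alpha subunits, was 149, 147 and 148 CPM in cntrl, 148, 151 and 149 in shCdk8-1 and 120.1, 128 and 118 in shCdk8-2. The shCdk8-2 libraries lay below all others (log2 difference from cntrl -0.28 ± 0.03, edgeR adjusted p = 3.7e-06), and shCdk8-1 overlapped cntrl (0.01 ± 0.03). Vhl, the substrate receptor for hydroxylated HIF, was 44.4, 45.3 and 46.3 CPM in cntrl, 53.9, 50.3 and 51.1 in shCdk8-1 and 46.1, 45.1 and 48.8 in shCdk8-2. It was higher in shCdk8-1 by 0.19 ± 0.05 (adjusted p = 0.0025), while shCdk8-2 overlapped cntrl. Egln3, a hydroxylase that HIF itself induces, was 0.12 ± 0.05 higher in shCdk8-1 (adjusted p = 0.041). That call was lost without cntrl DMSO replicate 1 or 2 or shCdk8-1 DMSO replicate 1 or 3, with an adjusted p of up to 0.141. Egln2 gave -0.12 ± 0.06 and -0.07 ± 0.06 and passed in neither line, and Epas1 had at most 5 reads in a DMSO library.

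Among glucose transport and glycolysis genes, 11 of 18 were higher and 2 lower in shCdk8-1, and 7 were higher and 2 lower in shCdk8-2. Pfkl (chr10:77986947-78010083, minus strand, GRCm38) was 184, 189 and 190.4 CPM in cntrl, 329, 349.7 and 333 in shCdk8-1 and 239.8, 242 and 239 in shCdk8-2. The 3 lines did not overlap, with log2 differences from cntrl of 0.84 ± 0.03 and 0.35 ± 0.03 (edgeR adjusted p = 4.1e-12 and 2.3e-07). The platelet-type gene Pfkp gave 0.63 ± 0.03 and 0.54 ± 0.03 and the muscle-type gene Pfkm 0.35 ± 0.03 and 0.39 ± 0.03, and all of these passed. The summed level of the 3 phosphofructokinase genes was 87.8 ± 0.345 CPM per kb in cntrl, 136 ± 3.06 in shCdk8-1 and 119 ± 1.02 in shCdk8-2. Of that sum, Pfkl made up 32.0 ± 0.534% in cntrl, 37.2 ± 0.443% in shCdk8-1 and 30.2 ± 0.328% in shCdk8-2.

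Eno2, which encodes the neuronal enolase (chr6:124760053-124769673, minus strand, GRCm38), went the other way. It was 11.6, 9.49 and 7.94 CPM in cntrl, 4.04, 3.53 and 4.39 in shCdk8-1 and 7.01, 7.51 and 7.12 in shCdk8-2. All cntrl libraries lay above all knockdown libraries, and the log2 differences were -1.26 ± 0.15 and -0.42 ± 0.13 (edgeR adjusted p = 1.6e-06 and 0.012). The call in shCdk8-2 was lost without cntrl DMSO replicate 1 (log2 difference -0.27, adjusted p = 0.0866), the highest of the cntrl libraries. Eno1, the main enolase, was higher in shCdk8-1 (0.37 ± 0.04) and in shCdk8-2 (0.18 ± 0.04).

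The hexokinases, which trap glucose in the cell, parted from each other. Hk1 was 405, 401 and 409.6 CPM in cntrl, 303, 329.6 and 305 in shCdk8-1 and 279.8, 295 and 283 in shCdk8-2, without overlap between cntrl and either line (log2 differences -0.38 ± 0.04 and -0.51 ± 0.04, edgeR adjusted p = 2.1e-06 and 8.5e-08). Hk2 was 130.1, 124 and 120.1 CPM in cntrl, 155, 175 and 166 in shCdk8-1 and 129.8, 131 and 137 in shCdk8-2. It was higher in shCdk8-1 (0.40 ± 0.06, adjusted p = 1.9e-05), and 0.08 ± 0.06 in shCdk8-2 did not pass. The share of Hk2 in the hexokinase signal per kb was 30.6 ± 0.985% in cntrl, 43.0 ± 0.807% in shCdk8-1 and 39.9 ± 1.01% in shCdk8-2, with no overlap of the lines with cntrl. The sum of both genes was 68.4 ± 0.741, 64.3 ± 3.33 and 55.7 ± 1.05 CPM per kb.

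Further down the pathway, Tpi1 was higher in shCdk8-1 and shCdk8-2 by 0.50 ± 0.04 and 0.25 ± 0.04. Pfkfb4, which makes the activator of phosphofructokinase, gave 0.36 ± 0.06 and 0.22 ± 0.07, and the glucose transporter Slc2a3 0.34 ± 0.05 and 0.25 ± 0.05, all past the test. Pgk1 (0.33 ± 0.06), Gpi1 (0.15 ± 0.03) and Aldoa (0.12 ± 0.03) passed in shCdk8-1 and not in shCdk8-2, where they gave 0.13 ± 0.06, 0.07 ± 0.03 and -0.03 ± 0.03. Slc2a1, the main glucose transporter, gave -0.05 ± 0.04 and 0.0046 ± 0.04, and Pkm, Pgam1 and Pfkfb3 were between -0.12 and 0.03 in the lines, none of them past the test.

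For the fate of pyruvate, 4 of 5 genes were higher in shCdk8-1, and 4 were higher and 1 lower in shCdk8-2. Ldha was 1361, 1397 and 1429.6 CPM in cntrl, 1877, 1868 and 1929.9 in shCdk8-1 and 1740.5, 1744 and 1740.5 in shCdk8-2, above all cntrl libraries in both lines (log2 differences 0.44 ± 0.04 and 0.31 ± 0.04, edgeR adjusted p = 3.6e-08 and 2.1e-06). The lactate exporter Slc16a3, also called MCT4 (chr11:120948480-120960868, plus strand, GRCm38), was 325, 324 and 339.7 CPM in cntrl, 475, 484 and 470.1 in shCdk8-1 and 391, 394 and 379 in shCdk8-2. The 3 lines did not overlap (0.53 ± 0.04 and 0.23 ± 0.04, adjusted p = 3.9e-09 and 5.7e-05). Pdk1 (0.31 ± 0.03 and 0.26 ± 0.03) and Pdk3 (0.25 ± 0.04 and 0.26 ± 0.04), kinases that keep pyruvate out of the mitochondrial cycle, were higher in both lines.

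Slc16a1, the more abundant transporter, gave -0.02 ± 0.04 in shCdk8-1 and -0.13 ± 0.04 in shCdk8-2. The second value passed (edgeR adjusted p = 0.0084) but not without cntrl DMSO replicate 3 (0.064). The share of Slc16a3 in the summed level per kb of the 2 transporters was 29.0 ± 0.44% in cntrl, 37.5 ± 0.37% in shCdk8-1 and 34.4 ± 0.543% in shCdk8-2.

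**Figure D2:**
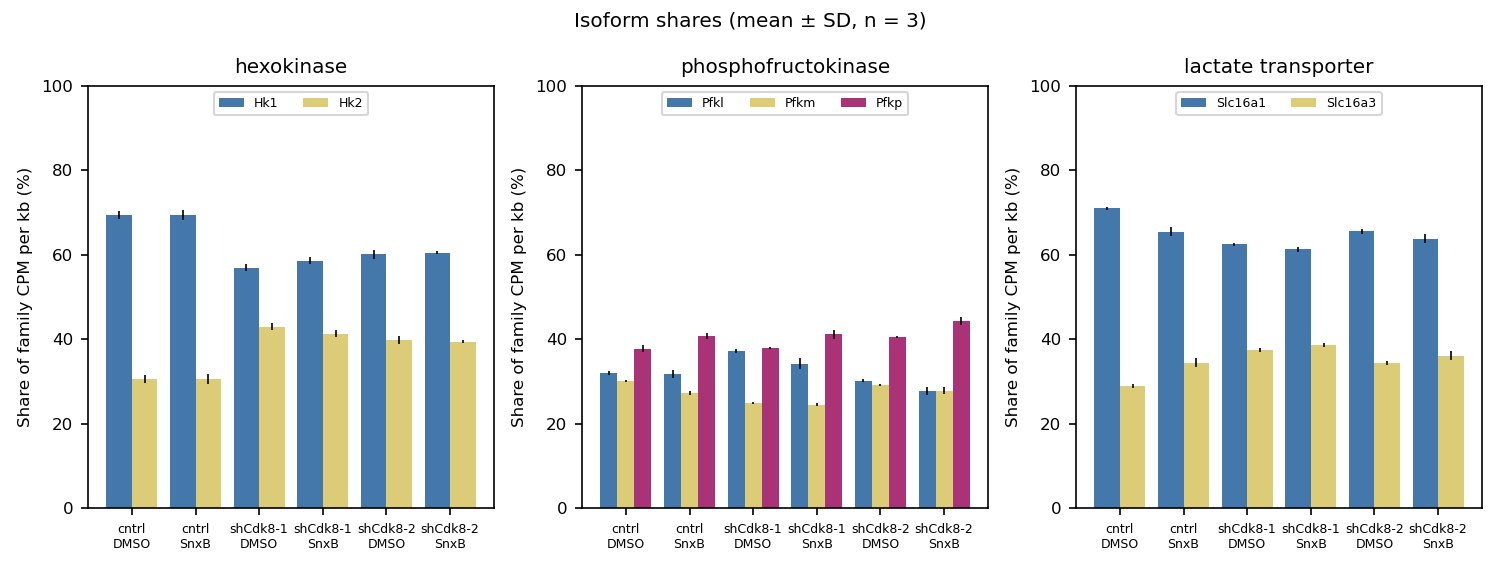
Share of each isoform in the summed CPM per kb of its family (bars, mean of 3 libraries; lines, SD) in the 6 groups, for hexokinase, phosphofructokinase and the lactate transporters. In DMSO, Hk2 makes up 30.6% in cntrl, 43.0% in shCdk8-1 and 39.9% in shCdk8-2, and Slc16a3 makes up 29.0%, 37.5% and 34.4%.

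The other HIF targets had no common direction: 6 of 13 were higher and 4 lower in shCdk8-1, and 2 were higher and 4 lower in shCdk8-2, with medians of -0.01 and -0.03. Among them, Car12 and Car9 encode carbonic anhydrases of the cell surface that control pH. Car12 was 27.6, 29.6 and 30.8 CPM in cntrl, 53.1, 52.9 and 46.6 in shCdk8-1 and 36.7, 42.2 and 40.1 in shCdk8-2, without overlap (log2 differences 0.79 ± 0.07 and 0.43 ± 0.07, edgeR adjusted p = 6e-08 and 7.7e-05). Car9, a classical marker of hypoxia, was below 1 CPM in every library, at 0.924, 0.705 and 0.931 in cntrl, 0.47, 0.57 and 0.465 in shCdk8-1 and 0.696, 0.357 and 0.384 in shCdk8-2. Its difference in shCdk8-2 (-0.79 ± 0.33, adjusted p = 0.048) was lost without cntrl DMSO replicate 1 or 3 or shCdk8-2 DMSO replicate 2 or 3 (up to 0.156), and that in shCdk8-1 did not pass (-0.77 ± 0.33, 0.054).

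Higher in shCdk8-1 were also Ddit4, an inhibitor of mTORC1 (0.49 ± 0.08), the mitophagy gene Bnip3 (0.42 ± 0.07), the vessel growth factor Vegfa (0.32 ± 0.07) and the collagen prolyl hydroxylases P4ha1 (0.14 ± 0.04) and P4ha2 (0.12 ± 0.04). In shCdk8-2 these gave 0.10 ± 0.08, 0.09 ± 0.07, 0.08 ± 0.08, -0.05 ± 0.04 and -0.02 ± 0.04, none past the test. Mxi1, a MYC antagonist, was higher in shCdk8-2 (0.31 ± 0.04) and gave -0.08 ± 0.04 in shCdk8-1. Ndrg1, a gene induced by stress and hypoxia, fell in shCdk8-1 (-0.24 ± 0.04) and in shCdk8-2 (-0.47 ± 0.04). So did Adm, which encodes the vasodilator peptide adrenomedullin (-0.20 ± 0.06 and -0.43 ± 0.06), and Ankrd37 (-0.76 ± 0.13 and -0.30 ± 0.12). The Ankrd37 call in shCdk8-2 (edgeR adjusted p = 0.043) was lost without cntrl DMSO replicate 1, 2 or 3 or shCdk8-2 DMSO replicate 1 or 2 (up to 0.143). Bnip3l was lower in shCdk8-1 (-0.19 ± 0.04; -0.09 ± 0.04 in shCdk8-2), and the histone demethylase Kdm3a was within 0.03 of cntrl in both lines.

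**Figure D3:**
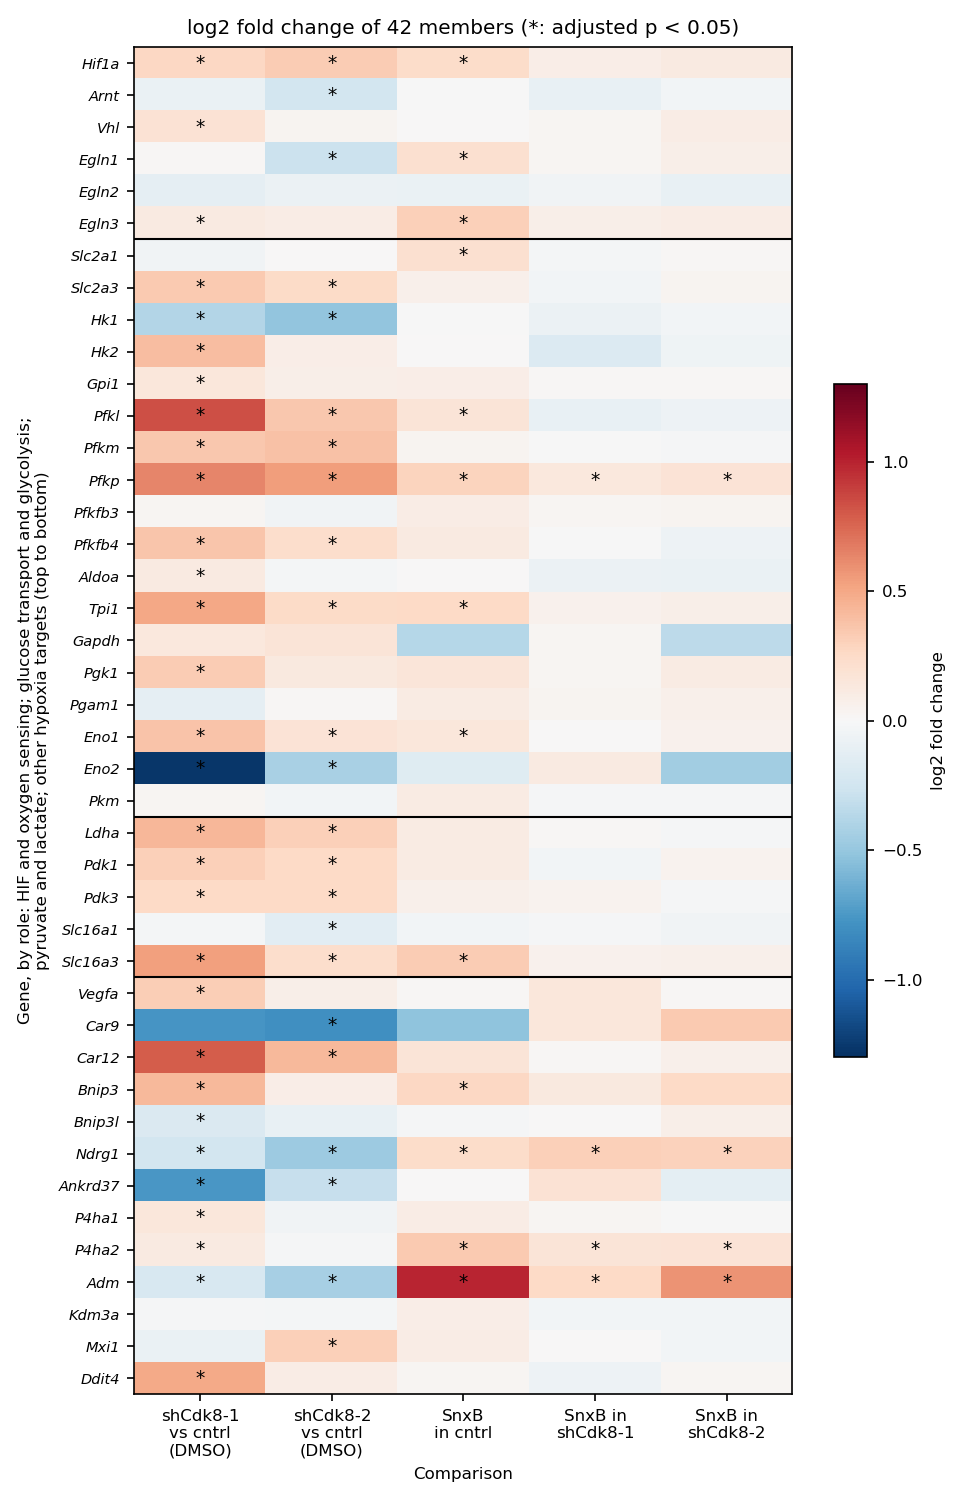
log2 fold change of the 42 tested genes (rows, by role) in each knockdown line against cntrl in DMSO and with SnxB against DMSO in each line (columns), from red (higher) to blue (lower); stars mark an adjusted p under 0.05. The first column holds 24 higher and 6 lower genes past the test, the second 14 and 9, the third 13 higher, and the last columns 4 higher each.

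The hairpins differed in these genes as well. Compared directly in DMSO, 20 of 42 genes were lower in shCdk8-2 than in shCdk8-1 and 3 were higher, where 22% of all genes passed, 10.6% lower and 11.3% higher. More Cdk8 mRNA was left in shCdk8-2 (38.9 against 21.4 CPM), and its part in these differences was not tested. The largest differences of shCdk8-2 from shCdk8-1 were Pfkl (-0.49 ± 0.03), Ddit4 (-0.40 ± 0.08), Car12 (-0.36 ± 0.07), Bnip3 (-0.33 ± 0.07) and Hk2 (-0.32 ± 0.06) on the lower side, with edgeR adjusted p from 5.9e-08 to 0.0018. Slc16a3 (-0.30 ± 0.04), Egln1 (-0.29 ± 0.03) and Tpi1 (-0.25 ± 0.04) were lower too. The 3 higher genes were Eno2 (0.84 ± 0.15), Ankrd37 (0.46 ± 0.13) and Mxi1 (0.40 ± 0.04). Ankrd37 was lost without shCdk8-1 DMSO replicate 2 or shCdk8-2 DMSO replicate 3 (edgeR adjusted p up to 0.0878). Of the genes on the lower side, Hk1 and Ldha were lost in all 6 fits that left out a library (up to 0.217 and 0.114). Vhl, Pgk1 and Vegfa were lost in 4 of the fits, Adm in 3, and Arnt and P4ha2 in 1. These fits gave 17 to 19 genes past the test, against 23 with every library.

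The second question was whether the kinase inhibitor did the same. In cntrl cells, 13 of 42 genes were higher in SnxB than in DMSO and none was lower, where 5.53% of all genes passed, 3.42% higher and 2.1% lower. At an unadjusted p under 0.05 the counts were 23 higher and 0 lower, and DESeq2 called 14 higher and 0 lower. No share of all genes is given beside such counts, here or below, so they cannot show an excess in this list. All of the 13 changes were below 2-fold, a limit that 0.318% of all genes passed, with a median over the 42 genes of 0.10 on the log2 scale against 0.0064 over all genes. They came from every role: Hif1a, Egln1 and Egln3 of the oxygen sensors, Slc2a1, Pfkl, Pfkp, Tpi1 and Eno1 of glycolysis, Slc16a3 of lactate export, and Bnip3, Ndrg1, P4ha2 and Adm of the other targets. Groups did not overlap for 23 of the 42 genes, against 21.9% of all genes. This comparison uses the same cntrl libraries in DMSO as the comparisons of the lines.

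Adm changed most (chr7:110627661-110629820, plus strand, GRCm38). It was 40.5, 42.6 and 43.6 CPM in cntrl in DMSO and 79.0, 88.8 and 83.2 in SnxB, a log2 difference of 0.99 ± 0.06 (edgeR adjusted p = 4.5e-08). The increase was also present in the knockdown lines, from lower starting levels: shCdk8-1 went from 36.8, 35.2 and 38.1 CPM to 40.2, 46.3 and 45.5, and shCdk8-2 from 30.1, 34.2 and 30.2 to 49.1, 44.8 and 47.0. Every SnxB library of a knockdown line lay far below the 3 cntrl libraries in SnxB. The differences within the lines, in the fit of 18 libraries, were 0.26 ± 0.06 (edgeR adjusted p = 0.046) and 0.58 ± 0.06 (2.5e-05). In shCdk8-1 the call was lost without shCdk8-1 DMSO replicate 1, 2 or 3 or shCdk8-1 SnxB replicate 2 or 3, with an adjusted p of up to 0.201.

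The other increases in cntrl were 0.34 ± 0.04 for P4ha2, 0.33 ± 0.04 for Slc16a3, 0.31 ± 0.05 for Egln3, 0.29 ± 0.03 for Pfkp, 0.26 ± 0.04 for Tpi1, 0.24 ± 0.04 for Ndrg1, 0.24 ± 0.04 for Hif1a, 0.21 ± 0.03 for Egln1, 0.21 ± 0.04 for Slc2a1 and 0.17 ± 0.03 for Pfkl, with edgeR adjusted p from 3e-05 to 0.006. Slc16a3 was 426, 394 and 423 CPM in SnxB, above all cntrl libraries in DMSO. Hif1a was 799.7, 761 and 729 CPM in SnxB, again without overlap with DMSO. Slc2a1, which did not pass in the knockdown lines, went from 221, 221 and 238 CPM to 262, 258 and 265. Bnip3 (0.27 ± 0.07, adjusted p = 0.025) was lost without cntrl DMSO replicate 1 or 2 or cntrl SnxB replicate 2 or 3 (up to 0.104), and Eno1 (0.14 ± 0.04, 0.042) without cntrl DMSO replicate 1 or 2 or cntrl SnxB replicate 1, 2 or 3 (up to 0.173).

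Many of these genes are known HIF targets, so their promoters were searched for the core of the HIF binding site, the hypoxia response element. The letters sought were ACGTG and GCGTG on either strand, in RefSeq windows of 300 bases (250 before the start of transcription and 50 after it, GRCm38.p6). At least 1 core was found in 43.8% of all 32851 windows, and in 76.7% of the 60 windows of the 41 genes with a window. Of the 12 genes raised by SnxB in cntrl that have a window, 11 held a core, as did 92.9% of their 14 windows. A match of 5 letters is common and is not evidence of binding. The windows of Adm, Slc16a3 and Pfkl are shown because their responses to SnxB differed between lines. That of P4ha2 is shown as an example of the genes that passed in all 3 lines. Pfkp, which also passed in them and has a window with cores, is not shown. Each is written 5′ to 3′ on the strand of the gene, with the cores in capitals, GCGTG and ACGTG on this strand or CACGC and CACGT for the other. The windows are chr7:110627407-110627706 on the plus strand for Adm, chr11:120948817-120949116 on the plus strand for Slc16a3, chr10:78009758-78010057 on the minus strand for Pfkl and chr11:54100674-54100973 on the plus strand for P4ha2.
Adm: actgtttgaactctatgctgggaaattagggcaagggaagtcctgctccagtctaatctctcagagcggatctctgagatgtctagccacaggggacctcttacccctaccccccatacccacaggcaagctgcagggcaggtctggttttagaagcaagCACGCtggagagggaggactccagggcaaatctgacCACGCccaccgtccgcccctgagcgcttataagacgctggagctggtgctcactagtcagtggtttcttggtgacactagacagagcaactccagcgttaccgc
Slc16a3: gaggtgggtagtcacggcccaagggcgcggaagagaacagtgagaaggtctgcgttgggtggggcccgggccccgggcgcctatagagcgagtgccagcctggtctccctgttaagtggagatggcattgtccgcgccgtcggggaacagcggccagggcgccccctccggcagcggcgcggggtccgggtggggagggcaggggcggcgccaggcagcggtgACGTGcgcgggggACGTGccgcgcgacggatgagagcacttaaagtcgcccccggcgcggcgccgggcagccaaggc
Pfkl: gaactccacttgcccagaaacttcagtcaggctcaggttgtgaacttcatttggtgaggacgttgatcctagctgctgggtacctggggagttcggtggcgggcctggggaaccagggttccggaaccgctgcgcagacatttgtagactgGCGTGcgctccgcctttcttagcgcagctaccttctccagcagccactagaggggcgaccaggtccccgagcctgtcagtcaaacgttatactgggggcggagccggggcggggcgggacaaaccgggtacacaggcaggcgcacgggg
P4ha2: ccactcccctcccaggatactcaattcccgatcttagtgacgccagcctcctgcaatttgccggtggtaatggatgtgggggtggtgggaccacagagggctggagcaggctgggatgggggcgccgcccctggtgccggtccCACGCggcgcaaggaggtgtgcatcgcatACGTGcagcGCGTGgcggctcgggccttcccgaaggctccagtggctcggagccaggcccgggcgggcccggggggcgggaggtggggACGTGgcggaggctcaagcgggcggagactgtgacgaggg
Adm holds cores that begin 90 and 54 bases before the start, both read on the other strand. Slc16a3 holds ACGTG 27 and 14 bases before it, and Pfkl holds GCGTG 99 bases before it. P4ha2 holds 4 cores, at -107, -78 and -69 and 10 bases after the start.

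Fewer of these genes passed the test with SnxB in the knockdown lines. In shCdk8-1, 4 of 42 were higher with SnxB and 0 lower, where 1.48% of all genes passed, 0.916% higher and 0.564% lower. In shCdk8-2 there were also 4 higher and 0 lower, where 2.05% did, 0.987% higher and 1.06% lower. At an unadjusted p under 0.05 there were 5 higher and 3 lower in shCdk8-1 and 9 higher and 2 lower in shCdk8-2. DESeq2 called 4 higher and 0 lower in each. The shares of all genes given here do not apply to these counts. The 4 genes past the edgeR test were in each case Adm, Ndrg1, P4ha2 and Pfkp, in libraries that the lines do not share. Ndrg1 was 152, 152 and 163 CPM in cntrl in DMSO and 184, 178 and 189 in SnxB, 135, 133 and 127 and 159, 173 and 159 in shCdk8-1, and 112, 112 and 114 and 145, 134 and 136 in shCdk8-2. It rose by 0.24 ± 0.04, 0.31 ± 0.04 and 0.30 ± 0.04 in the 3 lines, so the lowering with knockdown and the rise with SnxB went in opposite directions in it. P4ha2 rose by 0.34 ± 0.04, 0.16 ± 0.04 and 0.18 ± 0.04, and Pfkp by 0.29 ± 0.03, 0.14 ± 0.03 and 0.18 ± 0.03. In shCdk8-1 the call of P4ha2 was lost without shCdk8-1 DMSO replicate 1 or 2 or shCdk8-1 SnxB replicate 2 or 3 (edgeR adjusted p up to 0.108) and that of Pfkp without shCdk8-1 DMSO replicate 1 or 3 or shCdk8-1 SnxB replicate 3 (up to 0.121). Depending on which library was left out, 1 to 4 genes remained past the test in shCdk8-1, and 1 without shCdk8-1 DMSO replicate 1 or shCdk8-1 SnxB replicate 3.

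**Figure D4:**
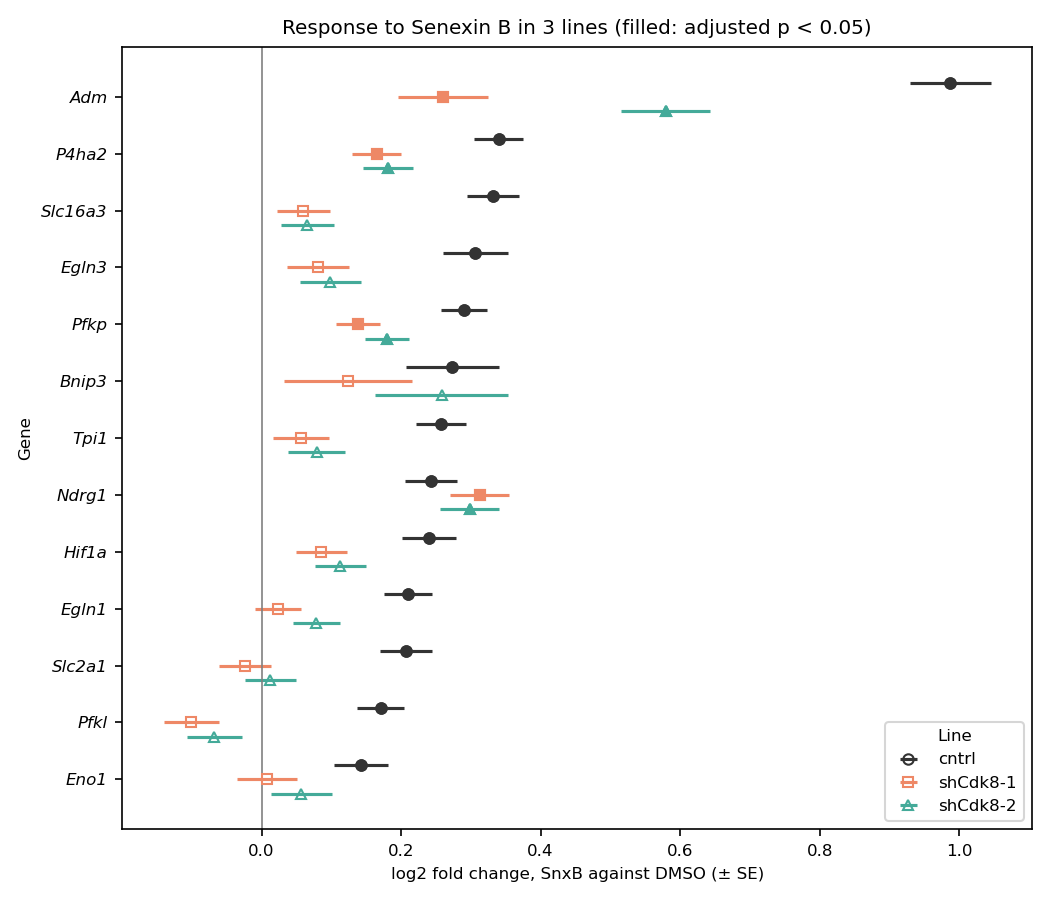
log2 fold change of SnxB against DMSO (points; lines, SE) in cntrl, shCdk8-1 and shCdk8-2 for the 13 genes past the test in cntrl, with filled symbols for an adjusted p under 0.05. The genes were picked by their response in cntrl, so that its values lie above those of the other lines is no result, and Adm stands at 0.99 in cntrl, 0.26 in shCdk8-1 and 0.58 in shCdk8-2.

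The difference between responses was tested as an interaction. In shCdk8-1 the SnxB response was smaller than in cntrl for 3 of 42 genes and larger for 0 (0.305% of all genes passed, 0.235% smaller and 0.0705% larger). At an unadjusted p under 0.05 there were 15 smaller and 0 larger, and DESeq2 called 4 smaller and 0 larger, Slc2a1 being the fourth. These counts have no share of all genes beside them. The 3 past the edgeR test were Adm (-0.73 ± 0.09, edgeR adjusted p = 0.0008), Slc16a3 (-0.27 ± 0.05, 0.032) and Pfkl (-0.27 ± 0.06, 0.039). A smaller response here is a lower log2 change, which can also be a fall. With SnxB in shCdk8-1, Slc16a3 and Pfkl did not pass and their libraries overlapped those in DMSO. The share of Pfkl in the phosphofructokinase signal per kb was 37.2 ± 0.443% there in DMSO and 34.3 ± 1.37% in SnxB. Adm passed in all 12 fits that left out a library. Slc16a3 was lost without cntrl DMSO replicate 1 or 2, shCdk8-1 DMSO replicate 1, 2 or 3, cntrl SnxB replicate 1 or 3 or shCdk8-1 SnxB replicate 1 or 3 (up to 0.112). Pfkl was lost without cntrl DMSO replicate 1, 2 or 3, shCdk8-1 DMSO replicate 1, 2 or 3, cntrl SnxB replicate 2 or 3 or shCdk8-1 SnxB replicate 1 or 3 (up to 0.155).

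For shCdk8-2 no interaction passed in edgeR, where 0.0548% of all genes did, 0.00783% with a larger and 0.047% with a smaller response. At an unadjusted p under 0.05 there were 13 smaller and 0 larger responses, a count without a share of all genes beside it. DESeq2, also without such a share, called 2 smaller, Adm and Slc16a3. Their values in edgeR were -0.41 ± 0.09 (adjusted p = 0.12) and -0.27 ± 0.05 (0.097), and Slc16a3 passed without cntrl SnxB replicate 2 (-0.30, 0.0372). The median interaction over the 42 genes was -0.09 for shCdk8-1 and -0.08 for shCdk8-2, against -0.0014 and -0.013 over all genes. Both interactions use the same 6 cntrl libraries. The SnxB response of the 39 and 42 genes that did not pass is not thereby shown to be alike in the lines.

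The lines were also compared with cntrl within SnxB, in the fit of 18 libraries. There, 20 of 42 genes were higher and 14 lower in shCdk8-1 than in cntrl (60.6% of all genes passed, 30.5% higher and 30.1% lower), and 11 were higher and 15 lower in shCdk8-2 (56.7%, 28.1% higher and 28.6% lower). Adm and Eno2 were the furthest below cntrl, Adm with log2 differences of -0.93 ± 0.06 in shCdk8-1 and -0.83 ± 0.06 in shCdk8-2 and Eno2 with -0.98 ± 0.19 and -0.71 ± 0.18. Slc2a1 was lower in both (-0.28 ± 0.04 and -0.18 ± 0.04), as was Egln1 (-0.17 ± 0.03 and -0.41 ± 0.03). Hif1a was still higher (0.11 ± 0.04 and 0.21 ± 0.04), and Slc16a3 was higher in shCdk8-1 (0.26 ± 0.04) but not in shCdk8-2 (-0.03 ± 0.04). Some calls were lost in fits that left out 1 of the 6 libraries compared. In shCdk8-1 these were Pkm in 5 fits, Gpi1, Pgam1 and Bnip3 in 3, Egln3 in 2, and Pgk1 and Bnip3l in 1. In shCdk8-2 they were Egln3 and Aldoa in 4 and Vhl and Pfkl in 2. Such fits gave 30 to 33 genes in shCdk8-1 and 23 to 26 in shCdk8-2.

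**Figure D5:**
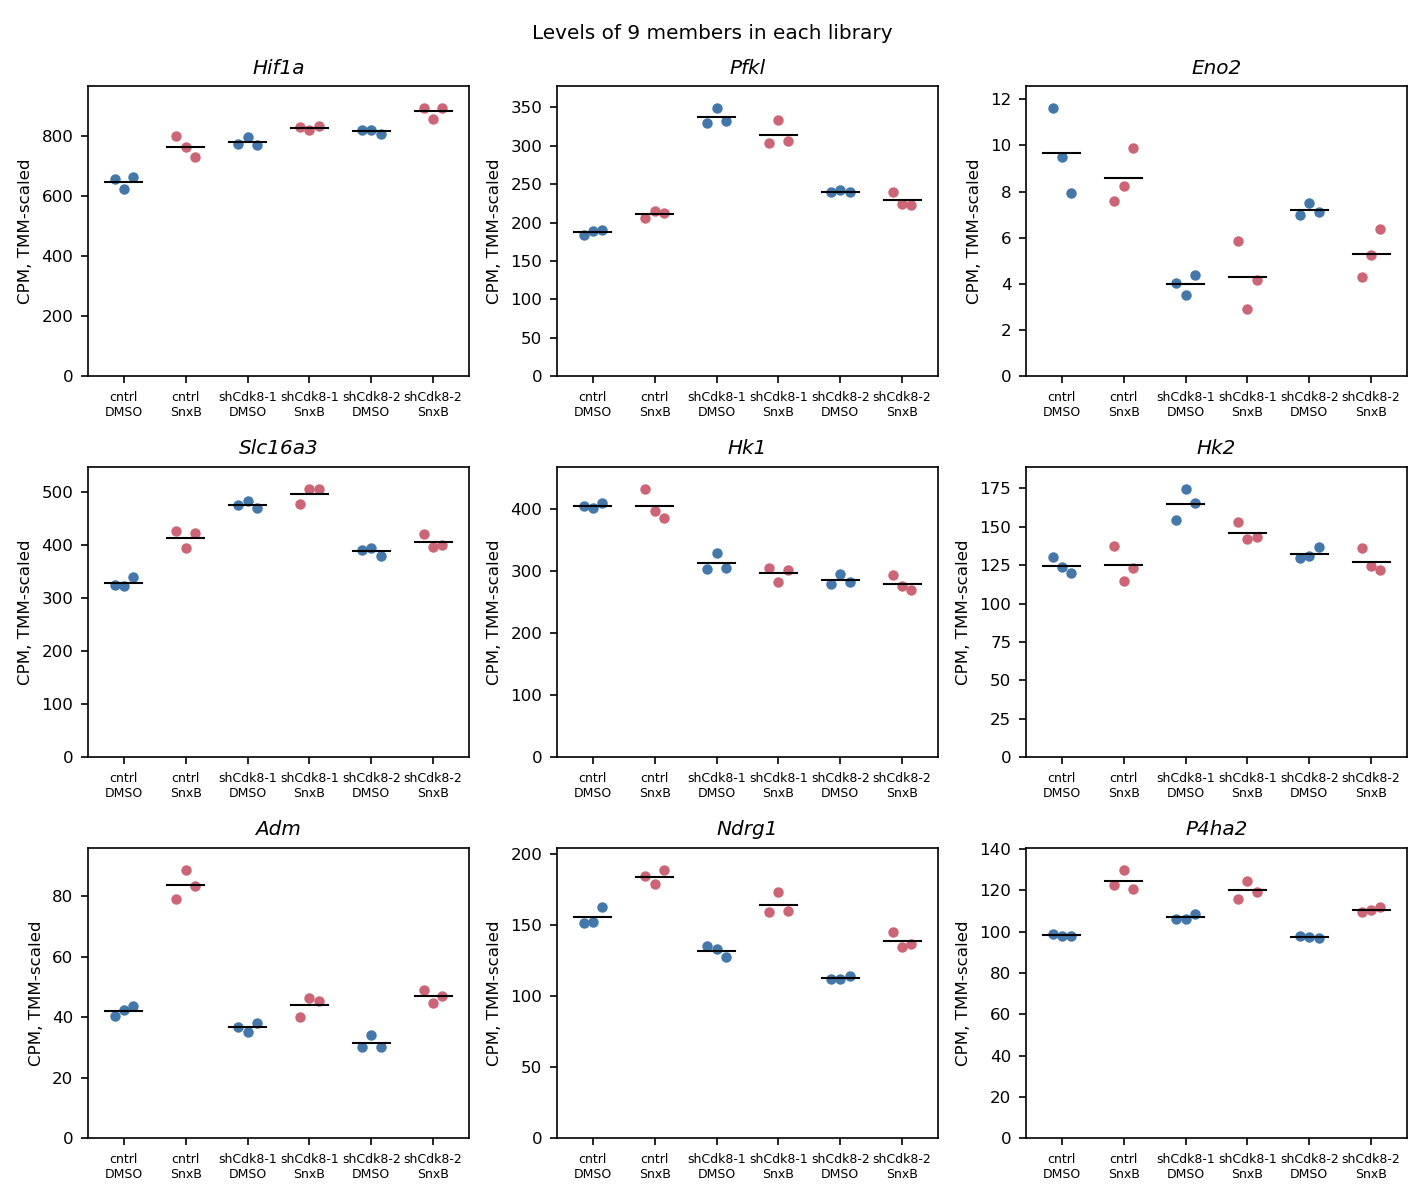
TMM-scaled CPM of 9 genes in each library (points; line, mean of 3) in the 6 groups, DMSO in blue and SnxB in red, with axes from 0. Adm in SnxB lies at 79.0 to 88.8 in cntrl and at 40.2 to 49.1 in the knockdown lines, and Pfkl lies highest in shCdk8-1 with either treatment.

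A list of 106 other genes of the same pathways was read alongside, of which 80 were tested. In shCdk8-1, 40 were higher and 17 lower than in cntrl in DMSO, and in shCdk8-2, 38 were higher and 18 lower, with medians of 0.15 and 0.11. That is 71.2% and 70% of the tested genes of the list, where 60.6% and 58.2% of all genes passed, and the counts of its smaller lists stand against the same shares. Past the test and 2-fold were 8 of the 80 in each line, where 12.3% and 10.8% of all genes were. The genes named for the knockdown lines were picked for the largest changes in both lines within each smaller list. That their changes are far larger than those of the 45 genes is therefore no result about the list. Loxl2, a lysyl oxidase that crosslinks matrix, was 0.448 ± 0.132 CPM in cntrl, 66.8 ± 1.28 in shCdk8-1 and 60.7 ± 1.67 in shCdk8-2 (7.18 ± 0.11 and 7.04 ± 0.11 on the log2 scale). Stc1, a secreted glycoprotein, was 31.5 ± 1.93, 0.943 ± 0.374 and 2.03 ± 0.496 CPM (-5.03 ± 0.15 and -3.94 ± 0.13). Both are hypoxia-responsive genes and they moved in opposite directions. Bhlhe41, a transcriptional repressor that HIF induces, was 1.04 ± 0.07 and 1.05 ± 0.07 higher.

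At the entry to the mitochondrial cycle, Pdp1, the phosphatase that activates pyruvate dehydrogenase and so opposes the Pdk kinases, was 264 ± 16.1 CPM in cntrl, 44.2 ± 2.8 in shCdk8-1 and 56.8 ± 1.13 in shCdk8-2 (-2.58 ± 0.05 and -2.22 ± 0.05). The subunit genes Pdha1 (0.68 ± 0.03 and 0.51 ± 0.03) and Pdhx (0.51 ± 0.06 and 0.44 ± 0.06) were higher. Among HIF regulators, 7 of 14 were higher and 2 lower in shCdk8-1, and 9 and 2 in shCdk8-2. They were led by Hsp90aa1, a chaperone of HIF1A (1.21 ± 0.04 and 1.18 ± 0.04), the demethylase Kdm5c (0.69 ± 0.05 and 0.45 ± 0.05) and, lower, Cul2, the scaffold of the VHL ligase (-0.51 ± 0.04 and -0.46 ± 0.04). In the pentose phosphate pathway, 4 of 7 were higher and 2 lower in shCdk8-1 and 2 and 1 in shCdk8-2, with Rpia (1.24 ± 0.04 and 0.75 ± 0.05), Tkt (0.39 ± 0.03 and 0.29 ± 0.03) and Pgls (-0.44 ± 0.05 and -0.31 ± 0.05) past the test in each line.

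Among the remaining isoforms of glycolysis, Eno3, the muscle enolase, was higher (0.72 ± 0.07 and 0.61 ± 0.08) and the transporter Slc2a8 lower (-0.60 ± 0.12 and -0.56 ± 0.12). The hexokinase relative Hkdc1 was 0.981 ± 0.138 CPM in cntrl, 0.057 in shCdk8-1 and 0.0365 in shCdk8-2, which makes it at least 5.74-fold lower in shCdk8-1 and at least 5.97-fold lower in shCdk8-2 against a floor of 3 reads per library. Of 3 tested genes of gluconeogenesis, Pck2 was lower (-0.32 ± 0.04 and -0.57 ± 0.04) and G6pc3 higher (0.21 ± 0.06 and 0.21 ± 0.06).

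With SnxB in cntrl, 9 of the 80 other genes were higher and 3 lower, where 3.42% of all genes were higher and 2.1% lower, and 11 of these 12 were hypoxia-responsive genes (8 higher and 3 lower of 32 tested). The lipase inhibitor Angptl4 (0.47 ± 0.12), the adenylate kinase Ak4 (0.32 ± 0.04), Pgm1 of glycogen metabolism (0.29 ± 0.05) and the collagen lysyl hydroxylase Plod2 (0.28 ± 0.04) rose, with edgeR adjusted p from 0.00022 to 0.03. The glycogen branching enzyme Gbe1 (-0.26 ± 0.06) and the heme oxygenase Hmox1 (-0.21 ± 0.05) fell. The gene of the 12 from outside the hypoxia-responsive list was Myc (0.22 ± 0.04). Loxl2 (0.83 ± 0.25), Stc1 (0.11 ± 0.09) and Pdp1 (0.03 ± 0.05) did not pass with SnxB. Ak4 was the gene of this list whose response was smaller in shCdk8-1 (interaction -0.31 ± 0.06, adjusted p = 0.026).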

How the data were processed

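Per the labels and the methods, the authors sequenced 50-base single-end reads, trimmed them with Trimmomatic, aligned them with STAR to GRCm38 and counted them per GENCODE M13 gene with featureCounts 1.5.1 on the reverse strand, leaving out reads with several positions or genes. The deposited values are raw counts per gene and library. Here, edgeR 4.0.16 (TMM scaling, quasi-likelihood test, Benjamini-Hochberg adjustment over all genes) was fitted to the 12 libraries of the 3 lines in DMSO and cntrl in SnxB (12590 genes) and to all 18 libraries (12772 genes) for SnxB in the knockdown lines, the lines in SnxB and the interactions. Genes with low counts were removed with filterByExpr (minimum 10, total 15). A call is an adjusted p under 0.05. Levels are TMM-scaled CPM, reads per 1000000 counted. The scripts were tested on simulated data.

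Members and lists were chosen with earlier results of these data known. Genes shown by library were those past the test and 2-fold and those with the largest change in each role in a knockdown line. Hif1a, Epas1, Arnt, Vhl and Gapdh were chosen whatever their values. Adm, Ndrg1, P4ha2, Hk1, Hk2 and Slc2a1 were added after their values were seen. Other genes past the test are given by their fold change. No 2 libraries held identical counts. Alternatives were DESeq2 1.42.0, other scalings and filters, a replicate block, other thresholds, and leaving out each library. The values of 1 gene of the other pathway genes are not reported here.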

Additional observations from a re-analysis of the deposited data

Results flagged for a closer look

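The response to SnxB differed between shCdk8-1 and cntrl, by the interaction in edgeR, for Adm (-0.73 on the log2 scale), Slc16a3 (-0.27) and Pfkl (-0.27). Each log2 change was lower in shCdk8-1, where Slc16a3 and Pfkl gave no call with SnxB. Adm kept its call in every fit that left out 1 library, and the calls of Slc16a3 and Pfkl depended on most of the 12 libraries of that comparison. With 3 libraries per group, no group was large enough to look for a library that stands apart in a single gene.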

How the results depend on the processing

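Counts of genes past the test stayed within 1.5 times of those reported under most alternatives, and no direction of a reported result turned. With the 2-fold limit as well, the counts were 1 for shCdk8-1 in DMSO and 0 for shCdk8-2 in DMSO, for SnxB in cntrl, in shCdk8-1 and in shCdk8-2, for the lines against each other and for each line against cntrl in SnxB. At an adjusted p under 0.01, 14 genes passed between the lines, 1 for SnxB in shCdk8-1 and 1 for the interaction with shCdk8-1. With only the groups compared in the fit, SnxB in shCdk8-1 and the interaction with shCdk8-1 gave 1 each. Without the filter on low counts the interactions gave 6 (shCdk8-1) and 2 (shCdk8-2), and DESeq2 gave 2 for shCdk8-2. Among single genes, the calls of Car9 and Ankrd37 in shCdk8-2 in DMSO and of Eno1 with SnxB in cntrl were lost with library totals in place of TMM and with the replicate block, those of Egln3 in shCdk8-1 in DMSO and Bnip3 with SnxB in cntrl with DESeq2, and those of Adm, P4ha2 and Pfkp with SnxB in shCdk8-1 when only the groups compared were fitted. The cause of these changes was not tested.

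Leaving out each library in turn gave 29 to 30 genes for shCdk8-1 and 20 to 23 for shCdk8-2 in DMSO, 11 to 13 for SnxB in cntrl, 17 to 19 between the lines, 1 to 4 for SnxB in shCdk8-1, 4 to 4 for SnxB in shCdk8-2, 30 to 33 and 23 to 26 for the lines in SnxB, and 1 to 4 and 0 to 1 for the interactions. The interaction with shCdk8-1 fell to 1 gene without cntrl DMSO replicate 1 or 2, any shCdk8-1 DMSO replicate, cntrl SnxB replicate 3 or shCdk8-1 SnxB replicate 1 or 3.

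Correlations of the deviations of same-numbered libraries ran from -0.160 to 0.247, with no comparison above 0.1 in all 3 pairs, so the numbers were not taken as pairs. The headers of the shCdk8-2 files carry replicate numbers 2, 3 and 3 where the labels give 1, 2 and 3. The labels were used, so the numbers of that line, and the pairing and block that use them, are uncertain. With the replicate block the counts were 31, 21, 12, 21, 4, 4, 34, 27, 3 and 0, in the order of the counts above, interactions last. All 6 libraries of SnxB against DMSO in shCdk8-1, and 5 of 6 of shCdk8-2 against cntrl in SnxB (correlations 0.247, 0.058 and 0.131), correlated best with their own number, a hint from the data only. Other scalings moved the median of all genes by at most 0.0598 on the log2 scale. Genes with few reads, such as Car9 and Eno2, are limited by depth.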
